A study of Mus musculus with 56 samples.

Results

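Blood leukocytes among CD11b-selected cells of the mouse cortex were taken from 8 droplet single-cell libraries by the transcripts each cell held. A cell was counted as a leukocyte if it had at least 500 genes, under 10% mitochondrial UMIs (unique molecular identifiers, 1 per captured transcript), at least 5 UMIs summed over S100a8, S100a9, Retnlg, Ly6c2, Plac8, Ccr2, Nkg7, Gzma and Cd3e, and under 8 UMIs summed over the border macrophage genes Pf4, Lyve1, F13a1, Ms4a7, Cbr2 and Cd163. The rule found 94 leukocytes among 15335 kept cells. These counts chose the cells, so levels of the 15 genes in leukocytes against other cells are given as description and not as findings.

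The study asked how microglia, the resident macrophages of the brain, change in the growing cortex and what IL-33 signalling through its receptor ST2 (gene Il1rl1) contributes to that. All libraries came from B6 mice, with 2 libraries each from wild-type cortex at postnatal day 28 (P28), wild-type cortex at day 9 (P9), cortex labelled ST2 KO and cortex labelled ST2 Het, the ST2 cortices also at day 9. The design text calls the controls of the ST2 comparison littermates, and the labels call them ST2 Het, so that comparison has no wild-type arm of its own. Brains were digested with papain and cleared on Percoll, cells were taken with CD11b beads, and the design text describes the profiled cells of the age comparison as intermediate for CD45 and CD11b. Such a gate and bead step can set how many leukocytes could enter, because neutrophils, monocytes and NK cells differ in both proteins. The labels do not say how many animals went into a library or whether the brains were perfused, so p-values measure the spread between libraries only.

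Neutrophils, monocytes and natural killer (NK) cells are made in the bone marrow and circulate in blood, and few are found in the parenchyma of a healthy brain. Neutrophils store antimicrobial proteins in granules that are filled in sequence as the cells mature, from primary granules through secondary and tertiary ones, and their cytosol is rich in the calcium-binding pair S100a8 and S100a9. Classical mouse monocytes carry Ly6c2 and the chemokine receptor Ccr2, and NK cells kill with granzymes and perforin.

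Kept cells held 7743830 and 7698057 UMIs in the P28 libraries, 11602189 and 10727976 in the P9 libraries, 4228028 and 4740232 in the libraries labelled ST2 KO, and 6950156 and 6998764 in the ST2 Het libraries. The 28 pairs of libraries shared at most 14 kept barcode sequences, 135 in sum, and 4 of the leukocyte barcodes also occurred in another library. Il1rl1 did not separate the genotypes in microglia. It had 31 and 28 UMIs in the libraries labelled ST2 KO (7.49 and 6.08 CPM, UMIs relative to all UMIs of the summed cells), against 37 and 46 UMIs in the ST2 Het libraries (5.45 and 6.70 CPM). The counts are 3' tags, and whether the deleted part lies where they fall is not given in the sources used here, so the label ST2 KO was not checked by them.

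The 94 cells fell into 6 clusters, of which 4 could be named from marker lists. There were 31 monocyte-like cells, 16 neutrophil-like cells, 11 NK-like cells, 8 cells led by MHC class II genes, 6 cells left unnamed and 22 microglia-like cells. The label therefore went with the markers of the first 3 clusters as sets, though not of every cell in them. It went against the microglial transcripts of most cells in the last cluster, which made up 23.4% of the members. The neutrophil-like cell with the fewest rule UMIs had 25 of them and 24 microglial UMIs. Microglia-like cells had a median of 50.5 UMIs over P2ry12, Tmem119, Siglech, Fcrls, Sall1 and Gpr34, near the median of 43 in the 14528 microglia used for comparison. Their rule genes summed to a median of 8 UMIs, and 12 of the 22 cells had under 10. At the other end, 4 of them, all from P28 1, had 114, 154, 361 and 454 rule UMIs, with 69, 102, 199 and 259 of S100a8, beside 14, 55, 36 and 31 microglial UMIs. Plac8, a small cysteine-rich protein of immune cells, had UMIs in 16 of them. By source of their rule UMIs, 15 of the 22 had most from the genes Ly6c2, Plac8 and Ccr2, and 7 had most from S100a8, S100a9 and Retnlg.

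**Figure D1:**
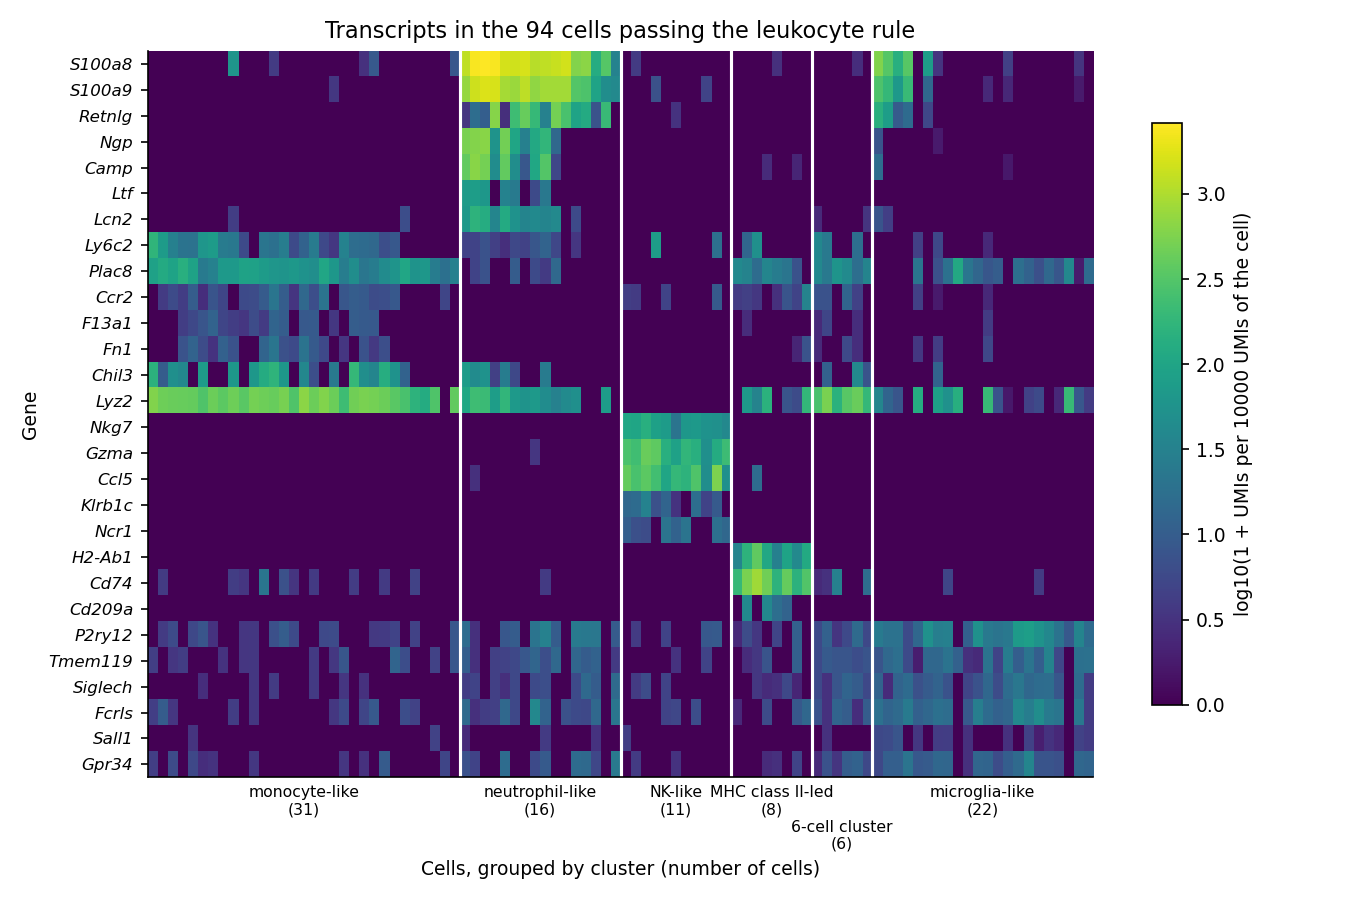
Transcript levels in each of the 94 cells that passed the leukocyte rule, as log10 of 1 plus UMIs per 10000 UMIs of the cell (colour). Columns are cells grouped by cluster, with the number of cells below each name, and rows are marker genes. S100a8 and S100a9 fill the 16 neutrophil-like cells, Nkg7 and Gzma the 11 NK-like cells, H2-Ab1 and Cd74 the 8 cells led by MHC class II genes, and microglial genes the 22 microglia-like cells.

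The rule UMIs of a cell mostly came from 1 group of rule genes, which describes the selection and includes the microglia-like cells. In 65 of the 94 cells every rule UMI came from 1 of the gene trios S100a8, S100a9 and Retnlg, or Ly6c2, Plac8 and Ccr2, or Nkg7, Gzma and Cd3e, and in 86 cells at least 90% did. Cd3e, a chain of the T cell receptor complex, had 0 UMIs in the whole matrix and chose no cell. T cell genes as a list had 25 UMIs in all leukocytes, spread over 6 of 11 measured genes, and Lck, a kinase that NK cells also use, gave 16 of them. Only 11 of the 14 list genes, and 4 of 11 genes of the T cell receptor complex, were in the matrix. T cells could thus be looked for only in part. Bcl11b, Cd8a, Cd8b1 and Cd5 had none. The red cell list had 2 UMIs in all leukocytes, from 1 of 8 genes.

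Microglial transcripts were common in leukocytes. At least 5 UMIs over the 6 microglial genes were found in 11 of 16 neutrophil-like cells, 5 of 31 monocyte-like cells, 0 of 11 NK-like cells, 2 of 8 cells led by MHC class II genes, and 6 of 6 cells of the unnamed cluster. Whether these cells are pairs captured in 1 droplet was not tested, and no doublet caller was run. Just inside the threshold, 7 cells had 5 rule UMIs, 5 of them mostly from Plac8, and 3 of the 7 had at least 5 microglial UMIs. Just outside it, 9 cells had 4 rule UMIs, 5 of them mostly from Plac8, and 9 of the 9 had at least 5 microglial UMIs. The limit on border macrophage genes removed 1 cell, which had 181 UMIs over those genes.

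**Figure D2:**
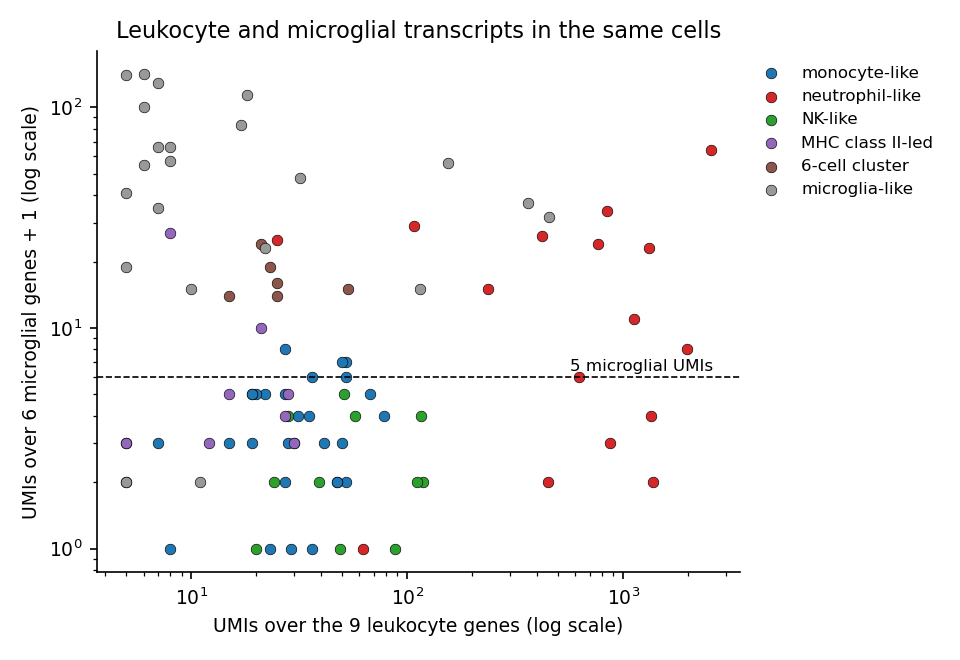
UMIs over the 9 leukocyte genes (horizontal, log scale) against UMIs over 6 microglial genes plus 1 (vertical, log scale) for each of the 94 cells, coloured by cluster. The 16 neutrophil-like cells reach 2538 leukocyte UMIs and 63 microglial UMIs in the same cell, while the 11 NK-like cells have at most 4 microglial UMIs.

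Leukocytes were a larger share of kept cells at P28 than at P9. They made up 1.47% (43 of 2931 cells, 95% Clopper-Pearson interval 1.06 to 1.97%) and 0.904% (27 of 2987, 0.597 to 1.31%) of the P28 libraries, against 0.315% (9 of 2861, 0.144 to 0.596%) and 0.280% (7 of 2497, 0.113 to 0.577%) of the P9 libraries. The lower P28 library lay above the higher P9 library, and their intervals, which cover counting error only, ended at 0.597 and 0.596% on the facing sides. The means were 1.19 ± 0.40% at P28 and 0.297 ± 0.024% at P9 (SD, n = 2 libraries each), a ratio of 3.99, with a two-sided exact permutation p of 0.333, the smallest that 2 against 2 libraries can give. Without the microglia-like cluster the shares were 1.13 and 0.870% at P28, against 0.210 and 0.160% at P9. Depth ran the other way in microglia, with a median of 2295 and 2232.5 UMIs per microglial cell at P28, against 3811.5 and 4048 at P9. In the leukocytes themselves it overlapped, with a median of 3833 and 3931 UMIs at P28, against 2361 and 4099 at P9. The share of border macrophages also ran the other way, at 1.81 and 1.54% of kept cells at P28, against 8.46 and 8.77% at P9. Red cell transcripts in microglia summed to 0.408 and 17.3 CPM at P28, against 0.376 and 0.514 CPM at P9, so blood RNA was not alike in the P28 pair, and its part in the leukocyte share was not tested.

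In the libraries labelled ST2 KO, 1 leukocyte each was found among 672 and 826 kept cells (0.149 and 0.121%), against 3 each among 1288 and 1273 in the ST2 Het libraries (0.233 and 0.236%). The exact permutation p was again 0.333, and the widest interval, 0.00377 to 0.826% in the first library labelled ST2 KO, covered the shares of both ST2 Het libraries. Of these 8 cells, 5 were microglia-like, 2 neutrophil-like and 1 monocyte-like, so 1 of the libraries labelled ST2 KO held no leukocyte outside the microglia-like cluster.

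**Figure D3:**
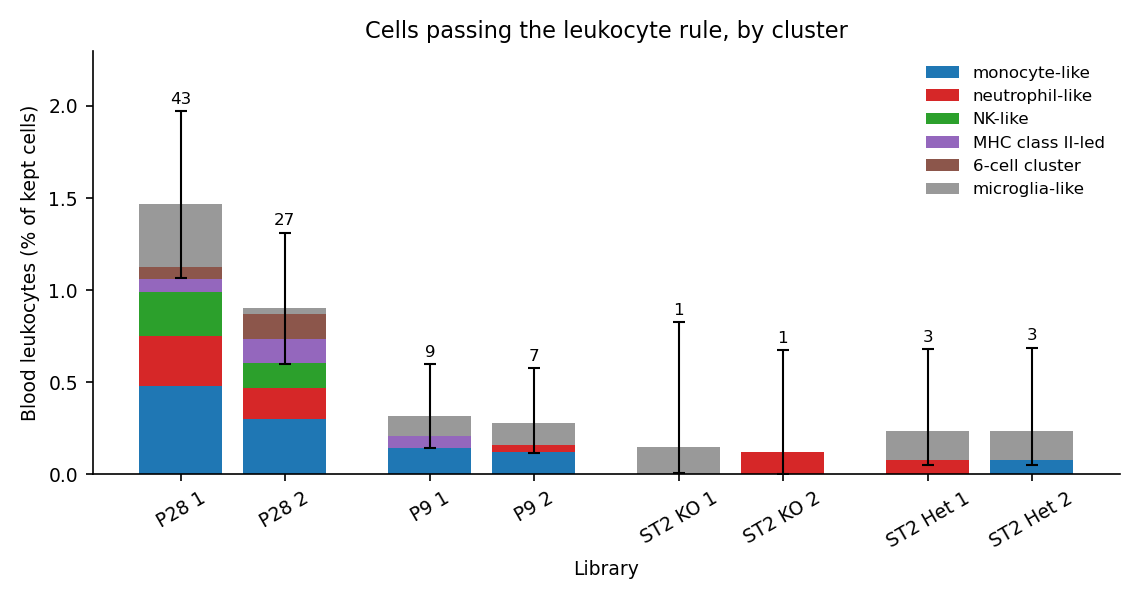
Leukocytes as a percentage of kept cells in each library, stacked by cluster, with the number of leukocytes above each bar and 95% Clopper-Pearson intervals of the total. The P28 libraries stand at 1.47 and 0.904%, above the P9 libraries at 0.315 and 0.280%.

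By cluster, monocyte-like cells were 0.478 and 0.301% of kept cells at P28, against 0.140 and 0.120% at P9. Neutrophil-like cells were 0.273 and 0.167% at P28 (8 and 5 cells), against 0 and 0.040% at P9 (0 and 1 cells). NK-like cells were 0.239 and 0.134% at P28 (7 and 4 cells), and none was found at P9, where 0 cells allow shares of up to 0.105 and 0.120% by the limit of 3 counts and 0.129 and 0.148% by the Clopper-Pearson interval. The last of these lies above the NK-like share of P28 2. The P28 and P9 libraries did not overlap in any of these 3 clusters, with an exact permutation p of 0.333 each. Microglia-like cells overlapped, at 0.341 and 0.0335% at P28, against 0.105 and 0.120% at P9 (exact p = 1). Among leukocytes alone, monocyte-like cells were 32.6 and 33.3% of leukocytes at P28, against 44.4 and 42.9% at P9, and neutrophil-like cells 18.6 and 18.5% at P28, against 0 and 14.3% at P9. Without the cells with at least 5 microglial UMIs, which include 11 of the 16 neutrophil-like cells, the difference of 11.4 percentage points in neutrophil-like cells (mean of the P28 less mean of the P9 libraries) turned to -8.40 percentage points. The P9 libraries had only 9 and 7 leukocytes, and the intervals of these shares were wide, for example 13.7 to 78.8% for the 44.4%.

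Transcripts of the rule genes were also found at low levels in microglia, which is the background for a share of cells with a UMI. Cells with at least 5 rule UMIs were not counted as microglia. The most in a microglial cell was thus limited to 4, and these levels are a description. S100a8 had a UMI in 9.36 and 5.82% of P28 microglia, against 0.425 and 1.11% of P9 microglia, with at most 3 in a cell. In microglia of the ST2 libraries S100a8 was found in 0 and 4.24% of cells labelled ST2 KO, against 1.43 and 0% of ST2 Het cells. The 2 libraries with none, the first labelled ST2 KO and the second ST2 Het, had no neutrophil-like cell, and neither had P9 1, where 11 of 2590 microglia had an S100a8 UMI. Plac8 went the other way with age, with UMIs in 1.62 and 1.10% of P28 microglia, against 3.94 and 3.70% of P9 microglia. Ly6c2 was rarer, with a UMI in at most 0.353% of the microglia of a library.

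The neutrophil-like cells are shown with promoters of the granule genes that set them apart from each other. Ngp (neutrophilic granule protein) and Ltf (lactoferrin) are proteins of secondary granules, Lcn2 (lipocalin 2) binds bacterial iron carriers, and S100a9 is shared by all 16 cells. Sequences are from RefSeq, build GRCm38.p6, 300 bases each around the gene start, 5′ to 3′ on the gene's strand, and capitals mark matches on either strand to TTGCNNAA, the core recognised by C/EBP factors, or to GAGGAA, the core recognised by PU.1. The matches do not overlap each other.
Ngp (chr9:110419558-110419857, plus strand): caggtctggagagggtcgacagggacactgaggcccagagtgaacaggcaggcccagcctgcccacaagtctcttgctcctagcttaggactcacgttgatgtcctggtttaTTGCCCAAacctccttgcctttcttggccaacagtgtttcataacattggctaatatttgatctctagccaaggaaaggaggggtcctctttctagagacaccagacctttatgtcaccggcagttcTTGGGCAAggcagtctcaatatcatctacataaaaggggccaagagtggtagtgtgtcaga
Ltf (chr9:111019042-111019341, plus strand): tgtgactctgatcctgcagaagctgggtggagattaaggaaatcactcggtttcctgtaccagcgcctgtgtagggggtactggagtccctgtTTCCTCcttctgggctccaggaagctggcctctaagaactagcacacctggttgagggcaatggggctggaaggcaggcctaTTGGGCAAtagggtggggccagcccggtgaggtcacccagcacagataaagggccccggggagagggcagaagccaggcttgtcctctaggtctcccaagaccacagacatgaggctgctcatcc
Lcn2 (chr2:32387690-32387989, minus strand): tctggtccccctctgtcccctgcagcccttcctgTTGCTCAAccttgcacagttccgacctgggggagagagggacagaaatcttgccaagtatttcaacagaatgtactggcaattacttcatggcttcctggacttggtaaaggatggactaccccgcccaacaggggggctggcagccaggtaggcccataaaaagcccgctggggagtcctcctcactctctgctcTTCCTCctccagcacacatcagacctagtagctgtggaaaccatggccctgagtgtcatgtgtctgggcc
S100a9 (chr3:90695672-90695971, minus strand): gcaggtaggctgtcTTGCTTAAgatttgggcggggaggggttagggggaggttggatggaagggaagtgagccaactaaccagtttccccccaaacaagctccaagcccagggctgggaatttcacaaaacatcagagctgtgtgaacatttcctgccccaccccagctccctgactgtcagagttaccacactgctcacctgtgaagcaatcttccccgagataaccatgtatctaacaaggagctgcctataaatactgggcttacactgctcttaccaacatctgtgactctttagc
TTGCNNAA occurred in 5 of 7 neutrophil genes looked up (Ngp, Ltf, Lcn2, S100a9 and Retnlg, but not S100a8 or Camp) and in 10.8% of all 32851 promoters of 300 bases. GAGGAA occurred in 3 of the 7 (S100a8, Ltf and Lcn2) and in 28.3% of all promoters. In the Ngp window the first bases of the matches stand at -138 and -11 relative to the gene start. A match is a description of the sequence only.

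Neutrophil-like cells differed widely in granule transcripts. Ngp ranged from 0 to 686 UMIs per cell, and 8 of the 16 cells had at least 10, the highest being 686, 306, 264 and 200. In those 8 cells Camp (cathelicidin) had between 13 and 508 UMIs, Lcn2 between 10 and 82, and Ltf was found in 7 of 8 cells. Ly6g, the surface marker of mouse granulocytes, had 22 UMIs in 6 of the 8. The other 8 cells had at most 8 Ngp and 2 Camp UMIs, and no Ltf or Ly6g. They kept Retnlg, a resistin-like secreted protein, with 364 UMIs in all, beside 388 in the cells with at least 10 Ngp UMIs.

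The cells with under 10 Ngp UMIs carried other transcripts. Cxcr2, the receptor that draws neutrophils to CXC chemokines, had 9 UMIs in 5 of these 8 cells and 0 in the 8 cells with more Ngp. Il1b, a cytokine of activated myeloid cells, had 14 UMIs in 6 of the 8 and 0 in the cells with more Ngp. Depth differed the other way, with a median of 2472 UMIs in the cells with under 10 Ngp UMIs, against 4318.5 in the others. Spearman's rho between the shares of UMIs taken by Ngp and by Retnlg was -0.25 over the 16 cells, which share libraries, as a description. Primary granule genes were close to absent: Elane and Ctsg had 0 UMIs in any leukocyte, Mpo also 0, Ms4a3 had 1, and Prtn3 had 3, in monocyte-like cells.

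Rule genes took up to 46.2% of the UMIs of a neutrophil-like cell, and as little as 0.712% in the single neutrophil-like cell of the libraries labelled ST2 KO. That cell had 11 S100a8 and 14 S100a9 UMIs, no Retnlg or Ngp, and 24 microglial UMIs. The neutrophil-like cell of ST2 Het 1 had 432 S100a8, 319 S100a9, 112 Retnlg and 8 Ngp UMIs with 2 microglial UMIs. The P9 cell had 255 S100a8, 147 S100a9 and 46 Retnlg UMIs and no Ngp, so all 8 cells with at least 10 Ngp UMIs came from P28 libraries, 5 from P28 1 and 3 from P28 2.

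**Figure D4:**
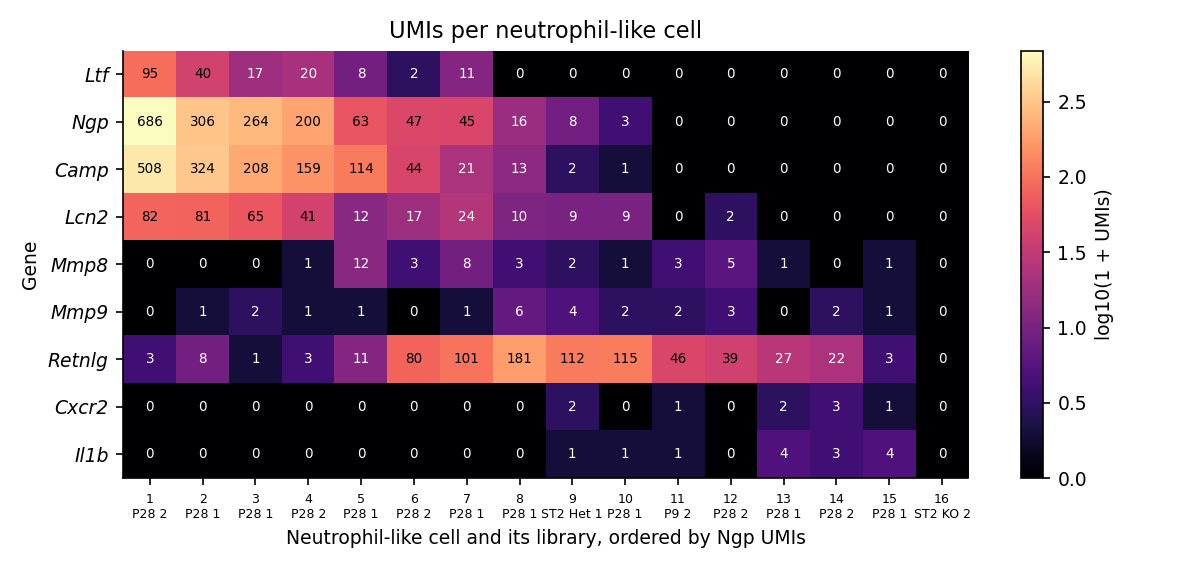
UMIs of 9 neutrophil genes in each of the 16 neutrophil-like cells, ordered by Ngp, with the count printed in each field and the colour on a log10 scale. Cells 1 to 8 hold Ngp, Camp and Lcn2 together and have no Cxcr2 or Il1b, while 6 of cells 9 to 16 have Il1b and 5 have Cxcr2.

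Monocyte-like cells carried Plac8 in 31 of 31 cells and Lyz2 (lysozyme) in 30. Ly6c2 had UMIs in 24 of them, and these had 57 UMIs of Ccr2, 51 of Fn1 (fibronectin), 41 of F13a1 (a clotting factor subunit that border macrophages also express) and 54 of Ms4a4c. The 7 cells with no Ly6c2 UMI had 3 of Ccr2, 0 of Fn1, 2 of F13a1 and 5 of Ms4a4c. They had 5 UMIs of Ace, found in non-classical monocytes, in 4 of 7 cells, against 2 UMIs in 2 of the 24 cells with Ly6c2. They were also shallower, with a median of 2361 UMIs against 3657.5, and Nr4a1, which non-classical monocytes need, had 3 UMIs in 1 of the 7 cells, against 27 in 8 of the 24. Of the 24, 20 came from P28 and 4 from P9, and of the 7, 3 came from P28, 3 from P9 and 1 from ST2 Het 2. The 1 cell without Lyz2, from P9 1, had 4 Plac8 and 1 Ccr2 as its rule UMIs. Mast cell and basophil genes had 14 UMIs in the monocyte-like cluster, over 5 of 12 genes. They stood at 1403 CPM in P9 1, and at 0 CPM in P9 2 and both P28 libraries.

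Chil3 (Ym1, a chitinase-like protein of myeloid cells) was found in monocyte-like cells of P28 only. It had 330 and 142 UMIs in the P28 libraries, in 12 of 14 and 7 of 9 cells, against 0 and 0 UMIs in 4 and 3 cells of the P9 libraries. The P28 and P9 values did not overlap. Over both libraries the P28 level was 5774 CPM, which is 41.3-fold a floor of 3 UMIs over the P9 cells. This floor covers the counting of UMIs only, and not the small number of P9 cells. The fold is thus no lower bound on a difference between the ages. Among cells with a Ly6c2 UMI the count was 17 of 20 cells at P28, against 0 of 4 at P9. Other monocyte genes also differed. Ly6c2, a rule gene, had a UMI in 20 of 23 cells at P28. It had 1, 0, 2 and 0 UMIs in the cells of P9 1, and 13, 0 and 12 in those of P9 2. The 19 monocyte genes listed, Chil3 among them, summed to 62953 and 65097 CPM at P28, against 38986 and 41834 CPM at P9. Plac8 and Lyz2 were closer than Chil3 but did not overlap. Plac8 stood at 6479 and 6523 CPM at P28, against 5713 and 4445 CPM at P9, and Lyz2 at 42627 and 46911 CPM at P28, against 30066 and 29719 CPM at P9. Ccr2 overlapped, at 553 and 675 CPM at P28, against 601 and 436 CPM at P9. With 4 and 3 cells in the P9 libraries, no test was made within monocyte-like cells. Chil3 was also found in 7 neutrophil-like cells of P28, with 161 UMIs.

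NK-like cells, all from P28, had Nkg7, a protein of cytotoxic granules, and Gzma (granzyme A) in 11 of 11 cells, with 184 and 494 UMIs. Of the 10 cytotoxic granule genes 9 had a UMI, among them Gzmb (57 UMIs in 9 cells), Prf1 (perforin, 8 UMIs in 5 cells) and Fasl (5 UMIs in 5 cells). Of the 16 NK receptor genes 15 were found. Klrb1c had 25 UMIs and Klrc1 19 UMIs in 9 cells each, and Ncr1, an activating receptor of NK cells, had 23 UMIs in 8 cells. Klra4, Klra8 and Klra9, inhibitory or activating receptors of 1 gene family whose reads can be shared between copies, had 11, 16 and 23 UMIs. Cd3g had 1 UMI, and Cd3d and Cd8a had none. Of the 4 genes of the T cell receptor complex in the matrix, 2 had a UMI here, with 5 UMIs in all. The T cell list had 20 of its 25 leukocyte UMIs in this cluster. The cells were the shallowest of the clusters, with a median of 2049 UMIs.

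The 8 cells led by MHC class II genes, 6 from P28 and 2 from P9 1, took no cell type name, since their marker scores did not meet the naming rule. H2-Ab1 and H2-Aa, chains of the antigen-presenting class II molecule, had 438 and 398 UMIs in 8 of 8 cells. Cd74, the chain that escorts it, had 1488 UMIs. Cd209a, a lectin of monocyte-related dendritic cells, had 59 UMIs in 4 cells, all from P28. Ccr2, a rule gene, was present in 7 of 8 cells. Of the 14 dendritic cell genes listed, 9 had a UMI in this cluster, with 82 UMIs in all. The list stood at 1976 CPM here, beside 39.0 to 542 CPM in the other clusters and 557 CPM in microglia. By library it stood at 3180 and 2134 CPM in the P28 cells of this cluster, against 0 CPM in the P9 1 cells. Xcr1, Clec9a and Ccr7 of other dendritic cells and Zbtb46 had 0 UMIs, and Flt3 had 3 UMIs in 3 cells. The unnamed cluster of 6 cells, all from P28, had monocyte transcripts, with Lyz2 at 963 UMIs, Plac8 at 103, Ifi27l2a at 109 and Ly6c2 at 44, together with a median of 14.5 microglial UMIs. Their 10 leading genes by fold rested on 2 or 3 UMIs each.

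Receptors for entry divided the clusters in part. Of 20 chemokine receptors 7 had a UMI in any leukocyte. Ccr2 was found in 23 of 31 monocyte-like cells and in 4 of 11 NK-like cells but in 0 of 16 neutrophil-like cells, and Cxcr2 in 5 neutrophil-like cells, 1 microglia-like cell and no other leukocyte. Itga4, the integrin chain that binds VCAM1, was found in 15 monocyte-like and 5 NK-like cells and in 0 neutrophil-like cells, and Itgb7 in 14 monocyte-like cells and in 6 of the 8 cells led by MHC class II genes. These counts are small, the genes took part in the clustering, and Ccr2 is a rule gene that helped choose the cells, so they are a description. Il1rl1, the IL-33 receptor, had 1 UMI in all 94 leukocytes, in a P28 1 cell of the unnamed cluster, and Il33 had 0. The 12 genes of type 2 innate lymphoid cells, which ST2 marks, summed to 41 UMIs, or 99.0 CPM, beside 88.3 CPM in microglia. By cluster they were highest in NK-like cells, at 390 CPM from 10 UMIs over 3 genes, beside 33.3 to 102 CPM in the other clusters.

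The age comparison across genes summed the UMIs of all leukocytes of a library, and so follows the mix of cells as well as expression within them. The sums held 188193 and 118569 UMIs at P28, against 38330 and 25326 at P9. Microglia-like cells gave part of each sum, with 6879, 11704 and 1309 UMIs in P9 1, and 4540, 3427 and 4201 in P9 2. The 1 such cell of P28 2 had 13266. The 10 of P28 1 had 9529, 6038, 7129, 4481, 2039, 13205, 2316, 6925, 14666 and 958. Their part was thus larger in both P9 sums than in either P28 sum. Of 1246 genes tested, 7 were higher (0.562%) and 1 was lower (0.0803%) at P28 than at P9 at an adjusted p under 0.05 (edgeR quasi-likelihood test with Benjamini-Hochberg adjustment), 0.642% in either direction. DESeq2 called 11 higher (0.883%) and 0 lower, and 133 genes had an unadjusted p under 0.05 by edgeR. The 7 were granule genes of neutrophils (Camp, Ngp, Lcn2), genes of NK cells (Nkg7, Gzma, Ccl5) and Chil3. All 7 had 0 UMIs in both P9 libraries and entered the test through the P28 libraries alone, and Nkg7 and Gzma were used by the rule, so the 7 calls are a description. Without P9 2 the counts were 70 higher and 25 lower, without P9 1 34 and 14, without P28 1 21 and 5, and without P28 2 8 and 0. The higher genes thus belonged to clusters that were absent or nearly absent at P9, with the exception of Chil3.

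Camp had 690 and 712 UMIs in P28 leukocytes (3666 and 6005 CPM), against 0 and 0 at P9. The P28 level was 97.0-fold a floor of 3 UMIs over the P9 group. This floor covers the counting of UMIs only, and not the few cells they came from. The folds here and below are thus no lower bounds on a difference between the ages. Ngp had 700 and 934 UMIs at P28, against 0 and 0 at P9, which is 113-fold the floor. In P28 2, 1 cell held 686 of the 934, and P9 had 1 neutrophil-like cell. Lcn2 had 207 and 145 UMIs at P28, against 0 and 0 at P9, which is 24.3-fold the floor. The calls of these 3 genes were lost without the cells that had at least 5 microglial UMIs, which leaves out 11 of the 16 neutrophil-like cells (adjusted p of 0.588 to 0.589, edgeR).

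Chil3 had 400 and 278 UMIs at P28, against 0 and 0 at P9, which is 46.9-fold the same floor. Ccl5, a chemokine of cytotoxic lymphocytes, had 386 and 227 UMIs at P28, against 0 and 0 at P9, which is 42.4-fold the floor. Gzma had 292 and 203 UMIs at P28, against 0 and 0 at P9. Nkg7 had 110 and 74 at P28, against 0 and 0 at P9. The lower gene was Igfbp4, a binding protein of insulin-like growth factors, with 4 and 1 UMIs at P28 (21.3 and 8.43 CPM), against 10 and 5 at P9 (261 and 197 CPM). On the log2 scale this was -3.55 ± 0.49 (SE), with an adjusted p of 0.0217 by edgeR. DESeq2 gave Igfbp4 no adjusted p. Of the 7 alternative fits that gave one, it passed in 4, and it was lost without P28 1, without P28 2 and without P9 2 (adjusted p of 0.997, 0.999 and 0.101, edgeR). Microglia of the same libraries had Igfbp4 at 68.3 and 65.8 CPM at P28, against 538 and 534 CPM at P9, and the part of microglial transcripts in the leukocyte value was not tested.

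Rule genes other than Nkg7 and Gzma varied between the P9 libraries. S100a8 had 26648 and 26584 CPM in P28 leukocytes, against 26.1 and 10069 CPM in P9 leukocytes, where a neutrophil-like cell was found only in the second. Ly6c2 had 1095 and 1223 CPM at P28, against 183 and 987 CPM at P9. Plac8 overlapped, with 2338 and 2724 CPM at P28, against 3105 and 2724 CPM at P9 (log2 fold change -0.01 ± 0.25, SE).

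By list, 3 of 10 tested neutrophil genes, 3 of 4 NK genes, 1 of 12 monocyte genes, 4 of 9 secondary and tertiary granule genes and 2 of 4 cytotoxic granule genes were higher, and none of these was lower, beside 0.562% higher over all 1246 genes. Nkg7 and Gzma of the rule are among the NK and cytotoxic members counted. 10 of the tested genes had no UMI at P9 and passed the filter on low counts through the P28 libraries alone, so these counts are no support for a direction. The median log2 fold change was 0.13 for the monocyte list, -0.16 for 20 cytosolic ribosome genes and 0.01 for 10 microglial genes, beside 0.03 over all 1246 genes. None of 6 MHC class II genes, 13 immediate early genes, 7 adhesion genes, 3 interferon response genes or 3 cell cycle genes passed. In simulated counts with a spread set in advance, this fit found 1 of 29 tested genes changed 4-fold, and 59 of 61 changed 16-fold. That none passed thus does not show that these lists stayed unchanged. The microglial list summed to 10314 and 6958 CPM in P28 leukocytes, against 5818 and 13386 CPM in P9 leukocytes, so it overlapped between the ages, and Sall1, Tmem119 and P2ry12 were all present.

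The change with age in leukocytes was set against the change in microglia of the same libraries by an interaction test over all 8 libraries. The test used 1 estimate of the spread per gene for sums of 1 to 43 leukocytes and sums of 654 to 2902 microglia. Sums of few cells vary more, and each age has 2 libraries, so its p-values can be too small. A difference also follows the mix of clusters, as in the comparison of leukocytes alone. Of 10541 genes, 45 (0.427%) had a higher and 2 (0.019%) a lower change in leukocytes than in microglia (edgeR, adjusted p under 0.05), 0.446% in either direction. For the 5 genes named first below, microglial libraries of P28 lay under those of P9, and the leukocyte values of the ages were closer to each other. The counts depended on scaling: with RLE in place of TMM scaling they were 17 and 7, and the median over all genes was 0.04 in place of 0.70 on the log2 scale, so values below are to be read against 0.70. No UMI was found in the leukocytes of 1 of the ages for 3926 of the genes, so no list medians are given.

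Lgals1 (galectin 1) stood at 1020 and 961 CPM in P28 leukocytes, against 939 and 790 CPM in P9 leukocytes, and at 9.39 and 9.61 CPM in P28 microglia, against 63.9 and 70.1 CPM in P9 microglia. The leukocyte change exceeded the microglial one by 3.49 ± 0.39 on the log2 scale (SE), with an adjusted p of 9.61e-15 by edgeR. Ifitm2, an interferon-induced membrane protein, stood at 978 and 1274 CPM in P28 leukocytes, against 1122 and 1106 CPM in P9 leukocytes, while microglia had 6.26 and 7.58 CPM at P28, against 42.1 and 45.3 CPM at P9 (difference 3.16 ± 0.39, SE; adjusted p = 3.03e-12, edgeR). Vim (vimentin, an intermediate filament) stood at 802 and 1164 CPM in P28 leukocytes, against 1148 and 869 CPM in P9 leukocytes, and differed by 3.21 ± 0.47 (SE; adjusted p = 2.84e-08, edgeR). In these genes the leukocyte libraries of the ages overlapped or lay close together, and the microglial libraries did not overlap. Ifi27l2a, an interferon-induced gene, and Emp3, a membrane protein, had differences of 3.16 ± 0.39 (adjusted p = 2.27e-12, edgeR) and 2.89 ± 0.41 (adjusted p = 5.48e-09, edgeR). These 5 passed in 11 of 11 alternative fits.

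**Figure D5:**
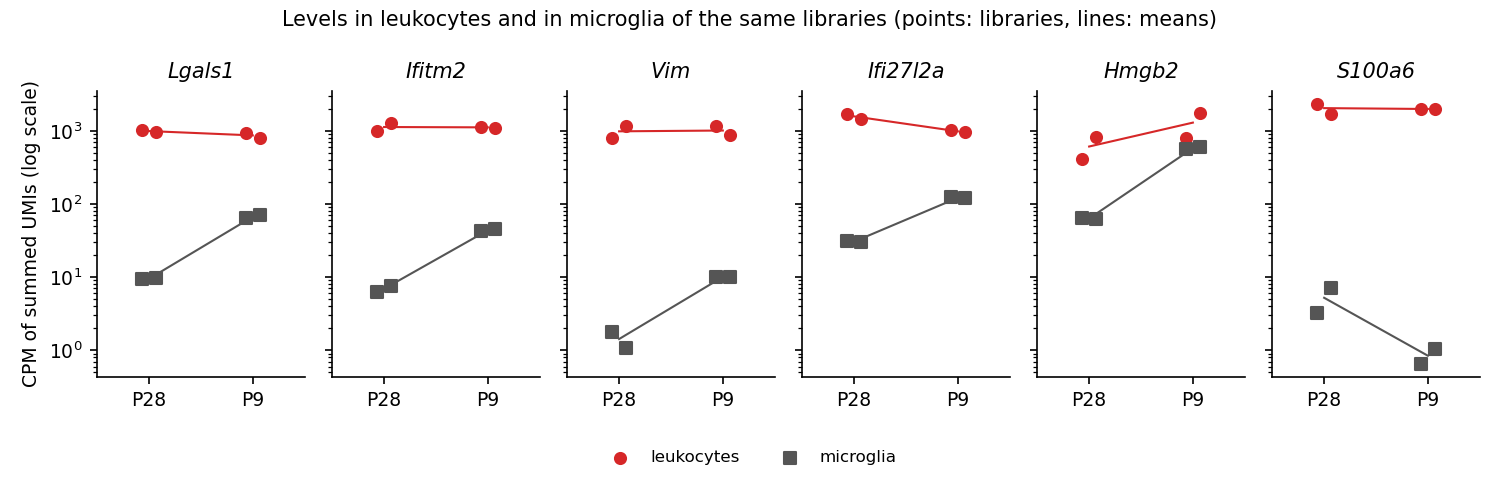
CPM (log scale) of 6 genes in the summed leukocytes (circles) and microglia (squares) of the P28 and P9 libraries, with lines through the means of 2 libraries. Lgals1, Ifitm2 and Vim lie near 1000 CPM in leukocytes at both ages, while microglia lie below 10 CPM at P28, and S100a6 is higher in P28 than in P9 microglia.

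Among the lists, 5 of 20 cell cycle genes had a higher change in leukocytes (Hmgb2, Ube2c, Birc5, Rrm2 and Cenpa), beside 0.427% of all 10541 genes. Single cells held much of this list. The top cell had 91 of 124 UMIs in neutrophil-like, 65 of 200 in microglia-like and 49 of 139 in monocyte-like cells. In neutrophil-like cells the list stood at 3921 CPM in P28 2, against 524 CPM in P28 1. Hmgb2, a chromatin protein, had 409 and 810 CPM in P28 leukocytes, against 809 and 1777 CPM in P9 leukocytes, and 64.8 and 61.6 CPM in P28 microglia, against 564.4 and 591.5 CPM in P9 microglia (difference 2.64 ± 0.41, SE; adjusted p = 2.36e-07, edgeR). The call was lost without P28 2 (adjusted p = 0.232, edgeR). The other 4 rested on few leukocyte UMIs, for example 0 and 9 at P28, against 2 and 0 at P9, for Ube2c, and Ube2c turned to the other direction without P28 2 or without the cells with microglial UMIs. Birc5, Rrm2 and Cenpa passed in 8, 9 and 4 of 11 alternative fits. Immediate early genes had 3 of 17 higher (Klf2, Fos and Dusp1), interferon response genes 2 of 19 (Ifi27l2a and Cxcl10), monocyte genes 1 of 16 (Lyz2) and NF-kB inflammatory genes 1 of 16 (Nfkbiz). Without P28 2 the calls of Klf2, Fos and Dusp1 were lost (adjusted p of 0.232, 1 and 1, edgeR), as were those of Lyz2 and Nfkbiz (0.543 and 1), and Cxcl10 turned to -3.60. Fos was also lost with RLE scaling (adjusted p = 0.373, edgeR), and Nfkbiz passed in 5 of 11 alternative fits. Cxcl10 had 0 and 27 leukocyte UMIs at P28, against 1 and 0 at P9, and 27 of the 28 were in 1 cell led by MHC class II genes. Fxyd5, an ion pump regulator, also had a higher change, by 2.33 ± 0.40 (SE; adjusted p = 8.69e-06, edgeR), and the call was lost without P28 1 (adjusted p = 0.554, edgeR).

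The 2 genes with a lower change were S100a6 and H2-DMa. S100a6, a calcium-binding protein, stood at 2359 and 1721 CPM in P28 leukocytes, against 1957 and 2014 CPM in P9 leukocytes, and at 3.27 and 7.17 CPM in P28 microglia, against 0.658 and 1.03 CPM in P9 microglia (difference -2.03 ± 0.52, SE; adjusted p = 0.0312, edgeR). H2-DMa, which loads peptides on class II molecules, stood at 255 and 388 CPM in P28 leukocytes, against 913 and 79.0 CPM in P9 leukocytes, and at 344 and 348 CPM in P28 microglia, against 131 and 122 CPM in P9 microglia (difference -1.72 ± 0.46, SE; adjusted p = 0.0387, edgeR), and turned to 1.10 without P9 1. S100a6 passed in 6 of 11 alternative fits and H2-DMa in 7 of 11. No rule gene passed in the age interaction, where these same counts had split the leukocytes from the microglia, so this is a description.

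In the ST2 comparison the same interaction called 0 of 10541 genes with a higher change and 5 (0.0474%) with a lower change in leukocytes of libraries labelled ST2 KO against ST2 Het than in microglia (edgeR; 205 genes had an unadjusted p under 0.05). They were the rule genes S100a8, S100a9 and Retnlg, with Ifi27l2a and Ccl12. S100a8 had 0 and 11 UMIs in leukocytes of libraries labelled ST2 KO, against 432 and 0 in ST2 Het leukocytes, and S100a9 had 0 and 14 UMIs, against 319 and 0. Retnlg had 0 and 0 UMIs, against 112 and 0. The ST2 Het values of all 3 came from 1 neutrophil-like cell, and without ST2 Het 1 the log2 differences of S100a8 and S100a9 turned to 6.98 and 6.77. Ifi27l2a had 0 and 0 UMIs, against 13 and 41, and Ccl12, a chemokine, 0 and 0, against 27 and 18. Each library labelled ST2 KO held 1 leukocyte with 5538 and 3511 UMIs, against 14093 and 20753 UMIs in the ST2 Het sums, so these values describe single cells and not genotypes.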

How the data were processed

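The droplet libraries hold UMI counts per gene and cell in 1 deposited matrix of 27998 genes. The counts were made with Cell Ranger on mm10, per the submitters' processing notes, which name no version. Cells were assigned to libraries by barcode prefix. The age libraries share 1 date string in their labels and the ST2 libraries another, so age and genotype were compared only within a date. The bulk libraries of the series were not used here.

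The cell filter was a minimum of 500 genes and a mitochondrial share of UMIs below 10%. Microglia compared with had at least 5 UMIs over 6 microglial genes, under 8 over the border macrophage genes, and were not among the leukocytes. Leukocytes were clustered with scanpy 1.11.5 and leidenalg 0.10.2 (2000 variable genes, 15 principal components, 10 neighbours, resolution 1), and a cluster was named where 1 marker list exceeded its level in the other leukocytes by 0.5 and the next list by 0.25, a scoring set after the data were seen. No doublet caller was run. UMIs were summed per library and tested with edgeR 4.0.16 (R 4.3.3; filterByExpr, TMM scaling, quasi-likelihood test) at an adjusted p under 0.05, with DESeq2 1.42.0 as an alternative. The planned minimum of 10 leukocytes per library left no P9 library, so the age fit used a minimum of 5, chosen after seeing the data, and no fit was made within clusters or for ST2 KO against ST2 Het leukocytes alone. The interaction used the leukocyte and microglial sums of all 8 libraries. Shares were compared with an exact permutation test over libraries (scipy 1.17.1). The code was tested on simulated data. Genes named are the 15 rule genes, Il1rl1, list genes past the threshold, and the 10 higher and 10 lower genes with the smallest adjusted p whose libraries did not overlap; others are list members or cluster descriptions. Members and lists were chosen with earlier results of these data known. Alternatives are given in the closing section.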

Additional observations from a re-analysis of the deposited data

Results flagged for a closer look

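The change with age differed between leukocytes and microglia for 45 genes with a higher and 2 genes with a lower change in leukocytes, by a test of the difference itself (edgeR interaction, adjusted p under 0.05). Lgals1, Ifitm2, Emp3, Vim and Ifi27l2a were among the 45 in 11 of 11 alternative fits. In the ST2 comparison the same test gave 5 genes with a lower change in leukocytes of libraries labelled ST2 KO against ST2 Het than in microglia. That comparison rests on 1 leukocyte in each library labelled ST2 KO and 3 in each ST2 Het library. S100a8, S100a9 and Retnlg, 3 of the 5, are rule genes, so their calls are a description. Their ST2 Het UMIs came from 1 cell of ST2 Het 1, and without that library S100a8 and S100a9 turned to 6.98 and 6.77 on the log2 scale.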

How the results depend on the processing

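Of the main shares and counts under all alternatives, 89 stayed the same, 29 moved and 3 reversed, and of the named genes 275 values stayed, 55 lost their call and 6 reversed. A count stayed the same within 1.5-fold, and a share where its direction held. Size did not enter for shares, because no exact p lay under 0.333. For example, the monocyte-like share of leukocytes, P28 minus P9, went from -10.7 to -0.972 percentage points at resolution 0.5 and counted as the same. The cause of the moves and reversals was not tested except where fewer cells or libraries entered. The difference in leukocyte share between libraries labelled ST2 KO and ST2 Het turned to 0.0485 percentage points at 3 rule UMIs and to 0.0179 after thinning to 1000 UMIs. The neutrophil-like share of leukocytes, P28 minus P9, turned to -8.40 points without cells with at least 5 microglial UMIs. Genes higher and lower in P28 leukocytes numbered 11 and 0 with DESeq2 and 42 and 13 without a filter on low counts. Leaving out 1 library gave 8 to 70 higher and 0 to 25 lower, with the largest counts without P9 2 and, at 34 and 14, without P9 1. With replicate number as a block the counts were 12 and 2. Same-numbered libraries deviated with a correlation of -0.22 over 1246 genes, and the crossed pairing, added after seeing the data, gave 33 and 10, so the numbers do not pair the libraries. For the interaction with age, RLE scaling gave 17 higher and 7 lower, no filter gave 38 and 0, and leaving out cells with microglial UMIs gave 21 and 3. Leaving out 1 library gave 6 (without P28 2) to 83 higher (without either library labelled ST2 KO) and 0 to 3 lower. In the ST2 interaction it gave 0 to 7 lower, with 0 without ST2 KO 2 and 1 without ST2 Het 1. Over fits without 1 library, the log2 differences ranged from -2.31 to 16.85 for Ube2c, -3.60 to 14.82 for Cxcl10, -2.47 to 1.10 for H2-DMa, -12.63 to 6.98 for S100a8 and -16.32 to 6.77 for S100a9. Ube2c was -2.44 without cells with microglial UMIs. Not run were the fit at 10 rule UMIs (P9 libraries under 5 cells), fits within clusters, ST2 leukocyte fits, and the ST2 interaction without cells with microglial UMIs (no leukocyte left in libraries labelled ST2 KO). The fit of only the 4 libraries compared is the one reported. With 9 and 7 leukocytes in the P9 libraries, clusters of 1 to 3 cells per library could be missed.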
